A study of Homo sapiens with 4 samples.

Results

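RAS and RAL GTPases, the proteins that switch them and the proteins they act on were examined in the RNA-seq libraries of wild-type (WT) and C/EBPβ enh-/- cells. The members were a list of 38 named genes, 22 GTPases of the RAS subfamily and 16 regulators or effectors, and all 38 were found among the 57768 genes of the deposited values. HepG2, the label of all 4 libraries, is a line from a human liver tumour, grown in Dulbecco's modified Eagle's medium with fetal bovine serum. WT cells (2 libraries) were set against C/EBPβ enh-/- cells (2 libraries), in which both alleles of an enhancer of CEBPB had been removed with CRISPR/Cas9. CEBPB encodes the transcription factor C/EBPβ. How many edited clones stood behind the C/EBPβ enh-/- libraries, and whether the libraries of a genotype came from separate cultures, is not given in the sources used here, so p-values measure only the spread between these libraries, which may be technical.

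Small GTPases of this family are molecular switches that signal when bound to GTP and stop when the GTP is hydrolysed. Exchange factors (GEFs) such as SOS1 and RALGDS load GTP, and GTPase-activating proteins (GAPs) such as NF1 and the RALGAP complex speed its hydrolysis. HRAS and NRAS signal through BRAF to the MEK-ERK kinases, and through RALGDS and its relatives to RALA and RALB. The RAL proteins bind the exocyst, which tethers secretory vesicles to the plasma membrane, through EXOC2 and EXOC8. RHEB activates the growth kinase mTOR, and the RAP proteins act on integrins and cell junctions.

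Values are FPKM, fragments scaled to transcript length and library size, and each difference is the log2 fold change of FPKM + 1, C/EBPβ enh-/- against WT, from limma fitted to the 12491 genes that averaged 1 FPKM or more over the libraries. Adjusted p-values are limma's with Benjamini-Hochberg correction over those genes, at a threshold of 0.05. CEBPB itself, the check of the labels, stood at 30.6 and 19.2 FPKM in WT libraries 1 and 2 and at 12.4 and 11.8 in C/EBPβ enh-/- libraries 1 and 2, a log2 fold change of −0.94 (SE 0.27, adjusted p = 0.125). Hepatocyte markers, checked against the HepG2 label, were nearly absent: 19 of 20 were under 1 FPKM in all 4 libraries, with ALB and AFP at 0 or near it, and the 20 summed to between 1.49 and 2.46 FPKM. The values do not bear out a hepatocyte identity, so HepG2 is used here only as the label, for every result. The 8 epithelial markers summed to 672 and 803 FPKM in WT and to 240 and 241 in C/EBPβ enh-/- cells, but 4 of the 8, with CDH1 and EPCAM at or near 0, were under 1 FPKM in all libraries. The keratin genes KRT8 (231.2 and 334.7 against 82.6 and 90.0 FPKM, limma adjusted p = 0.0325) and KRT18 (416.1 and 460.8 against 155.4 and 148.0, adjusted p = 0.0243) held most of the sum and fell. The 8 mesenchymal markers summed to 293 and 371 against 253 and 215 FPKM, most of it VIM (232.3 and 308.5 against 190.0 and 137.9), with CDH2, FN1 and PDGFRB also lower without overlap, COL3A1 higher (33.3 and 31.9 against 45.8 and 55.7) and COL1A1 overlapping. The 5 blood cell markers summed to at most 0.310 FPKM. The part of cell identity in the results was not tested, and fewer cells of a kind cannot be told apart from less RNA per cell. Depth, read approximately from the spacing of low values, was about 22000000 fragments in C/EBPβ enh-/- library 1 and about 38800000 to 48000000 in the others, and the 5 highest genes held 35.1% of the total in that library against 18.8% to 27.4%.

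Across all tested genes 62.6% had a fold change below 0, with a median of −0.14, so the members are read against that background. The promoters of the RAL genes and RHEB are shown first because these 3 genes carry the contrasts described next, and the letters searched are CCAAT, from which the C/EBP (CCAAT/enhancer-binding protein) family has its name, and the core of a C/EBP site. Each sequence is the 250 bases before the RefSeq start of the gene on GRCh38.p14, 5′ to 3′ on the gene's strand, with capitals for CCAAT on either strand (ATTGG on the other).
RALB, chr2:120252602-120252851, plus strand: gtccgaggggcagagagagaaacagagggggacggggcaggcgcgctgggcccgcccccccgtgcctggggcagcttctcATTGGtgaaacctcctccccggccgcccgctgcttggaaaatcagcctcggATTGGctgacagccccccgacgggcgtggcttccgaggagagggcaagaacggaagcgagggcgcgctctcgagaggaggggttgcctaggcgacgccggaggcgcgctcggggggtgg
RALA, chr7:39623322-39623571, plus strand: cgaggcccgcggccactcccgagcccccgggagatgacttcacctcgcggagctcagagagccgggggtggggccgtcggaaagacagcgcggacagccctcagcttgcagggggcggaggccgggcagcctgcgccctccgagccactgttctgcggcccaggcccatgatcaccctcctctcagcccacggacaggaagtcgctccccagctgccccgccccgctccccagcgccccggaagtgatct
RHEB, chr7:151519896-151520145, minus strand: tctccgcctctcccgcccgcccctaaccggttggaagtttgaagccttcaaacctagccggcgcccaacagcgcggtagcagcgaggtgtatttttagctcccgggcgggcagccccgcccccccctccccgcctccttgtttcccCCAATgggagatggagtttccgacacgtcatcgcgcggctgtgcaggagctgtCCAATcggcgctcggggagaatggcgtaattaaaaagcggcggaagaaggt

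RALB held 2 CCAAT matches, RHEB held 2 and RALA held none. Of the 38 members 34 were matched in the RefSeq promoter table; the others were RRAS, RHEBL1, DIRAS1 and RERG. CCAAT was in 8 of the 34 windows (23.5%), against 32% of the 35116 promoters of the table. The C/EBP core letters TTGCNNAA, sought on both strands, were in 3 of 34 (8.82%), against 9.05% of all promoters. Those 3 were RAP2B, DIRAS3 and EXOC8, shown here with the match in capitals.
RAP2B, chr3:153161976-153162225, plus strand: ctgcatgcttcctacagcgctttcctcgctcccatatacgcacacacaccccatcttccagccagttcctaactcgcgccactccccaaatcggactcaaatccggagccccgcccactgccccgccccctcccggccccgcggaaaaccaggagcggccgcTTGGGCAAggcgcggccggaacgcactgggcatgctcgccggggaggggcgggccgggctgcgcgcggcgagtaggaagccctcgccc
DIRAS3, chr1:68050628-68050877, minus strand: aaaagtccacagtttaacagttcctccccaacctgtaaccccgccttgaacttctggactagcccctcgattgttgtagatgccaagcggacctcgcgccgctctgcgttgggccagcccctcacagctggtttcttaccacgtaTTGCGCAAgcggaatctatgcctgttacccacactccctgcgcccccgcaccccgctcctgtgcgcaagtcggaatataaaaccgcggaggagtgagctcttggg
EXOC8, chr1:231337853-231338102, minus strand: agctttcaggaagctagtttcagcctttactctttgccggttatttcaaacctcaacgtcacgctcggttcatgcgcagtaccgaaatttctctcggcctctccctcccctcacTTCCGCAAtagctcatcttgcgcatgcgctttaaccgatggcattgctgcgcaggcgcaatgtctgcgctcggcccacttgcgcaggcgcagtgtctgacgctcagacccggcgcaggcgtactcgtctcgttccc

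The GC box GGGCGG, on either strand, was in 25 of 34 member windows (73.5%) against 42.6% of all, and the members' windows had a median GC content of 70% against 58%. A match describes letters in a window and says nothing of binding.

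RALB and RALA, close homologues that share the exocyst as effector, differed in how they stood between genotypes. RALB (chr2:120997640-121052286 on GRCh37, plus strand) was at 5.92 and 6.64 FPKM in WT and at 4.37 and 2.60 in C/EBPβ enh-/- cells. Both C/EBPβ enh-/- libraries lay below both WT libraries. The log2 fold change was −0.73 (SE 0.27, 95% confidence interval −1.37 to −0.08), with an unadjusted p of 0.0325 and an adjusted p of 0.196, so RALB did not pass the limma threshold. Without C/EBPβ enh-/- library 2 it was −0.44. RALA (chr7:39663164-39747719, plus strand) was at 10.6 and 7.99 FPKM in WT and at 12.9 and 7.21 in C/EBPβ enh-/- cells. Its genotypes overlapped, and the log2 fold change was 0.06 (SE 0.31, interval −0.67 to 0.80, limma adjusted p = 0.931). RALA exceeded RALB in all 4 libraries.

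The share of RALB in the FPKM of the 2 genes does not depend on how libraries were scaled to each other. RALB made up 35.8% and 45.4% of the summed RALA and RALB FPKM in WT and 25.4% and 26.5% in C/EBPβ enh-/- cells, means of 40.6% ± 6.78 and 26.0% ± 0.815 (SD, n = 2 each, two-sided exact permutation p = 0.333). The log2 ratio of RALB to RALA, with 1 added to each FPKM, was −0.75 and −0.23 in WT and −1.37 and −1.19 in C/EBPβ enh-/- cells, a difference of −0.79 (two-sided exact permutation p = 0.333), or −0.94 with 0.1 added. With 2 libraries against 2, that is the smallest p the test can give. The C/EBPβ enh-/- mean of RALB was 0.555 times its WT mean, and that of RALA 1.08 times.

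**Figure D1:**
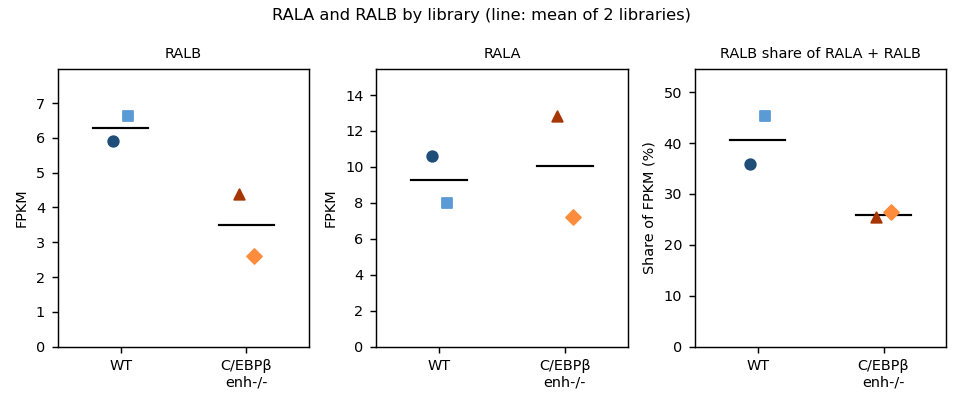
FPKM of RALB and RALA and the RALB share of their sum in percent, per library and genotype; each point is 1 library (circle and square, WT 1 and 2; triangle and diamond, C/EBPβ enh-/- 1 and 2) and the line is the mean of 2. RALB and its share do not overlap between genotypes (35.8% and 45.4% against 25.4% and 26.5%), while RALA does.

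The genes around RALB stood in the same direction. All 9 tested genes within 1 Mb of it had both C/EBPβ enh-/- values below both WT values, as 37.5% of all tested genes did. Their log2 fold changes ran from −1.45 for STEAP3, a metalloreductase, to −0.19 for C2orf76, with a median of −0.84, and 7 of the 9 lay below RALB's own −0.73. None of the 9 passed the limma threshold, the lowest adjusted p being 0.0685 for EPB41L5. These neighbours were named after their values were seen. Chromosome 2 as a whole, with 795 tested genes, had a median of −0.44. RALB differed from the median of its neighbours by 0.11 on the log2 scale, above it, and from that of its chromosome by −0.29. The part of the surrounding region in the RALB value was not tested.

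RERG was the only member past the threshold. It encodes a RAS-like GTPase first described as an estrogen-regulated inhibitor of growth. RERG (chr12:15260717-15501609, minus strand) was at 47.4 and 40.8 FPKM in WT and at 17.1 and 18.4 in C/EBPβ enh-/- cells. The libraries of each genotype lay close together and the genotypes lay far apart. It fell to 0.402 of its WT mean, a log2 fold change of −1.26 (SE 0.21, interval −1.77 to −0.75, limma adjusted p = 0.0476). Among all tested genes 1.21% passed as lower and 0.248% as higher; among the 31 tested members 1 passed as lower and 0 as higher. The call was near the threshold. It was lost when any 1 of the 4 libraries was left out (adjusted p from 0.116 to 0.322, log2 fold change from −1.37 to −1.16), and with no filter on low values (adjusted p = 0.330) or with values centred on the library median (adjusted p = 0.0924).

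Around RERG, the 11 tested genes within 1 Mb ran from −1.18 for PLBD1 to 0.44 for EPS8, with a median log2 fold change of −0.11. None was lower than RERG, but PLBD1 and H4C16 (−1.17) came near its −1.26. PLBD1, H4C16 and H2AJ, 3 of the 11, were lower without overlap and none was higher. Over all tested genes those shares were 37.5% and 15.1%. PTPRO, a receptor phosphatase gene that overlaps RERG on the opposite strand, was at 0.438 to 2.06 FPKM. Whether counting used strand is not given in the sources used here, so reads of overlapping genes cannot be told apart.

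At an unadjusted p under 0.05, 4 members were lower (RERG, RASL11A, RALB and NF1), where 16.9% of all tested genes were, and 2 were higher (RHEB and RALGPS2), where 3.86% of all were. By genotypes that did not overlap, 13 of the 31 tested members were lower (41.9%) and 5 were higher (16.1%), against 37.5% and 15.1% of all tested genes. These shares were close to the background. The median of the members was −0.19 and that of all tested genes −0.14, with quartiles of −0.47 and 0.16. The 7 members under the filter were RASD1, RASD2, DIRAS1, DIRAS2, DIRAS3, RASL11B and RGL1, none of which reached 1 FPKM in any library, the highest value being 0.951 for RASD1 in C/EBPβ enh-/- library 1.

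**Figure D2:**
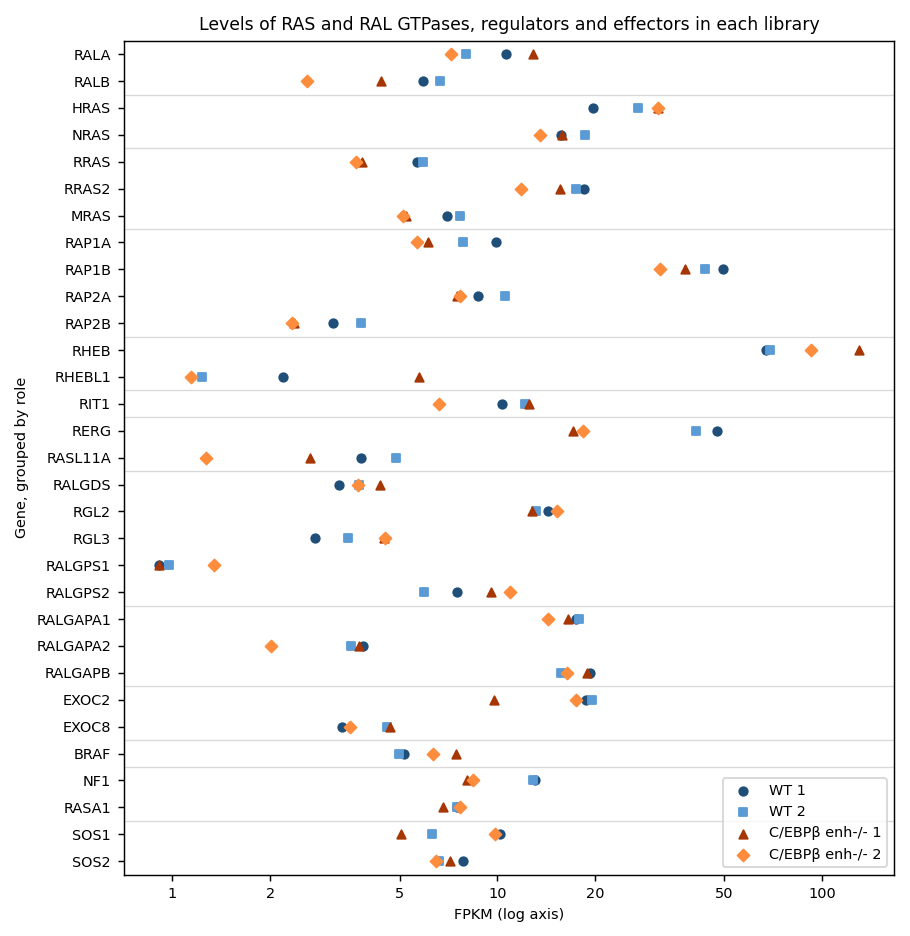
FPKM on a log axis of the 31 tested members, ordered by role from RAL GTPases at the top to RAS exchange factors at the bottom; each point is 1 library. RHEB is the highest gene in every library (66.9 to 130 FPKM), and RERG shows the widest separation, 40.8 and 47.4 in WT against 17.1 and 18.4.

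The GTPases and their regulators differed in count. Of 16 tested GTPase members, 10 had genotypes that did not overlap and were lower (62.5%), 2 were higher (12.5%), and the median log2 fold change was −0.39. Of 15 tested regulators and effectors, 3 were lower, 3 were higher (20% each), and the median was 0.01. Over all tested genes the shares were 37.5% and 15.1% and the median −0.14. This contrast between the 2 groups of members is a description and was not tested.

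Classical RAS was represented by HRAS and NRAS, which drive the RAF-MEK-ERK cascade. HRAS was at 19.7 and 27.0 FPKM in WT and at 31.3 and 31.2 in C/EBPβ enh-/- cells (log2 fold change 0.42, SE 0.24, limma adjusted p = 0.356). Without WT library 1 it was 0.20 and without WT library 2 it was 0.64. NRAS was at 15.7 and 18.6 against 15.8 and 13.6 FPKM, and its genotypes overlapped (−0.21, limma adjusted p = 0.635, from −0.33 to −0.09 without 1 library and −0.04 centred on the library median). HRAS made up 55.7% and 59.2% of the FPKM of these 2 genes in WT and 66.4% and 69.7% in C/EBPβ enh-/- cells (two-sided exact permutation p = 0.333).

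The R-RAS group, whose best known member RRAS acts on integrin adhesion and the vasculature, was lower in all 3 genes without overlap, as 37.5% of all tested genes were. RRAS was at 5.65 and 5.92 FPKM in WT and at 3.84 and 3.66 in C/EBPβ enh-/- cells (−0.51, SE 0.22, limma adjusted p = 0.247). RRAS2, also known as TC21, was at 18.4 and 17.4 against 15.6 and 11.8 FPKM (−0.38, SE 0.23, adjusted p = 0.395), and −0.19 without C/EBPβ enh-/- library 2. MRAS, which with SHOC2 takes part in activating RAF, was at 7.02 and 7.66 against 5.22 and 5.13 FPKM (−0.43, SE 0.21, adjusted p = 0.303). None of the 3 passed the threshold, and centred on the library median they were −0.34, −0.20 and −0.26. Their sum was 31.1 and 31.0 FPKM in WT against 24.6 and 20.6.

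The 4 RAP genes, which act on adhesion through integrins and cadherins, were likewise all lower without overlap (37.5% of all tested genes) and none passed. RAP1B, the most abundant, was at 49.6 and 43.7 FPKM in WT and at 37.9 and 31.7 in C/EBPβ enh-/- cells (−0.42, SE 0.22, limma adjusted p = 0.330). RAP1A was at 9.92 and 7.85 against 6.11 and 5.66 FPKM (−0.51, SE 0.23, adjusted p = 0.259). RAP2A was at 8.75 and 10.5 against 7.49 and 7.65 FPKM (−0.31, SE 0.22, adjusted p = 0.465), and −0.19 without WT library 2. RAP2B was at 3.11 and 3.81 against 2.37 and 2.34 FPKM (−0.41, SE 0.24, adjusted p = 0.378). RAP1B held 69.5% and 66.3% of the group's FPKM in WT and 70.4% and 66.9% in C/EBPβ enh-/- cells, and these shares overlapped. Centred on the library median, the log2 fold changes were −0.34 for RAP1A, −0.24 for RAP1B, −0.13 for RAP2A and −0.23 for RAP2B, and RAP2A then overlapped. For RAP2A the 4 tested genes within 1 Mb had a median of −1.04, below its own value.

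RHEB ran the other way and was the most abundant GTPase of the list. RHEB (chr7:151163098-151217206, minus strand) was at 66.9 and 69.1 FPKM in WT and at 130 and 92.5 in C/EBPβ enh-/- cells. Both C/EBPβ enh-/- libraries exceeded both WT libraries, library 1 by more. The log2 fold change was 0.68 (SE 0.24, interval 0.11 to 1.26, limma adjusted p = 0.177), and 0.44 without C/EBPβ enh-/- library 1. The 15 tested genes within 1 Mb had a median of 0.15. RHEBL1, its less abundant homologue, was at 2.19 and 1.23 FPKM in WT and at 5.75 and 1.14 in C/EBPβ enh-/- cells. Its log2 fold change of 0.51 (SE 0.53, limma adjusted p = 0.625) came from C/EBPβ enh-/- library 1 and was −0.32 without it.

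The summed FPKM of the 22 GTPase genes was 285.9 and 285.9 in WT and 312.3 and 243.1 in C/EBPβ enh-/- cells, with no separation. RHEB held 23.4% and 24.2% of that sum in WT and 41.7% and 38.1% in C/EBPβ enh-/- cells, means of 23.8% ± 0.528 and 39.9% ± 2.56 (SD, n = 2 each, two-sided exact permutation p = 0.333, the smallest possible). RERG held 16.6% and 14.3% against 5.48% and 7.56%, and the RAP genes 25.0% and 23.1% against 17.3% and 19.5%. Without RHEB the other GTPases summed to 218.9 and 216.8 FPKM in WT and to 182.1 and 150.6 in C/EBPβ enh-/- cells.

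**Figure D3:**
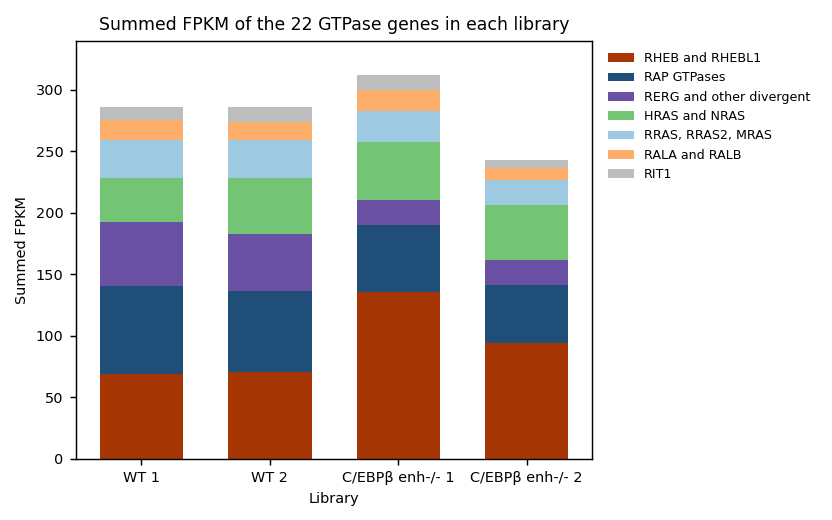
Summed FPKM of the 22 GTPase genes in each library, stacked by subgroup; bar height is the sum of FPKM. RHEB with RHEBL1 takes 69.1 and 70.3 FPKM in WT and 135.9 and 93.6 in C/EBPβ enh-/- cells, and RERG with the other divergent genes takes 51.9 and 46.2 against 20.9 and 20.3.

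Among the divergent members, RASL11A, a RAS-like gene linked to the nucleolus, was at 3.80 and 4.89 FPKM in WT and at 2.66 and 1.27 in C/EBPβ enh-/- cells (−0.88, SE 0.31, limma adjusted p = 0.175), and −0.54 without C/EBPβ enh-/- library 2. The 9 tested genes within 1 Mb of it had a median of −0.70, and 7 of them were lower without overlap, against 37.5% of all tested genes; the median of chromosome 13 was −0.50. RIT1, which is mutated in a form of Noonan syndrome, was at 10.4 and 12.1 FPKM in WT and at 12.6 and 6.62 in C/EBPβ enh-/- cells, and its genotypes overlapped.

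All 5 tested exchange factors that load RAL had a log2 fold change above 0, as 37.4% of all tested genes did, and 2 of them were higher without overlap (15.1% of all). None passed the threshold, and RGL2 and RALGPS1 turned negative without C/EBPβ enh-/- library 2 (−0.10 and −0.03). RALGPS2, which has a PH domain and needs no RAS to act, was at 7.49 and 5.95 FPKM in WT and at 9.54 and 11.0 in C/EBPβ enh-/- cells (0.55, SE 0.23, limma adjusted p = 0.236). RGL3 was at 2.74 and 3.48 against 4.47 and 4.51 FPKM (0.42, SE 0.23, adjusted p = 0.349), and shares part of its locus with EPOR on the same strand. RALGDS, the prototype RAS effector of this class, was at 3.27 and 3.74 against 4.34 and 3.74 FPKM, with overlap. Under every other scaling run, RALGDS was higher without overlap. In the main fit RGL2 and RALGPS1 overlapped as well (0.02 and 0.12). The 6 RAL exchange factors summed to 29.2 and 28.1 FPKM in WT and to 32.7 and 36.0 in C/EBPβ enh-/- cells.

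The RAL GAP complex, which turns RAL off, showed small differences. RALGAPA1 was at 17.5 and 17.8 FPKM in WT and at 16.5 and 14.3 in C/EBPβ enh-/- cells (−0.19, SE 0.21, limma adjusted p = 0.659), lower without overlap, with −0.29 without C/EBPβ enh-/- library 1 and −0.09 without library 2. RALGAPA2 (−0.31) and the shared subunit RALGAPB (0.01) overlapped. Of the exocyst subunits that bind RAL, EXOC2 was at 18.8 and 19.6 against 9.78 and 17.5 FPKM (−0.52, SE 0.30, limma adjusted p = 0.365). Only C/EBPβ enh-/- library 1 was far below WT, and without it the log2 fold change was −0.13, against −0.91 without library 2. EXOC8 was at 3.32 and 4.56 against 4.69 and 3.51 FPKM and overlapped.

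NF1, the RAS GAP lost in neurofibromatosis, had the tightest replicates of the members that separated. NF1 (chr17:29421945-29709134, plus strand) was at 13.1 and 12.9 FPKM in WT and at 8.09 and 8.40 in C/EBPβ enh-/- cells. It stood at 0.634 of its WT mean, a log2 fold change of −0.60 (SE 0.21, interval −1.09 to −0.10, limma adjusted p = 0.173). The 19 tested genes within 1 Mb had a median of −0.35, 3 of them below NF1, and the 721 tested on chromosome 17 a median of −0.47. BRAF, the RAF kinase of the list, was at 5.17 and 4.98 FPKM in WT and at 7.43 and 6.33 in C/EBPβ enh-/- cells (0.37, SE 0.22, limma adjusted p = 0.380). NDUFB2, which overlaps BRAF on the opposite strand, was at 95.6 to 126.9 FPKM. The other GAP, RASA1, and the RAS exchange factors SOS1 and SOS2 overlapped, with log2 fold changes of −0.05, −0.16 and −0.07. SOS1 differed between libraries of 1 genotype by more than between genotypes, at 10.2 and 6.30 FPKM in WT and 5.04 and 9.82 in C/EBPβ enh-/- cells.

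**Figure D4:**
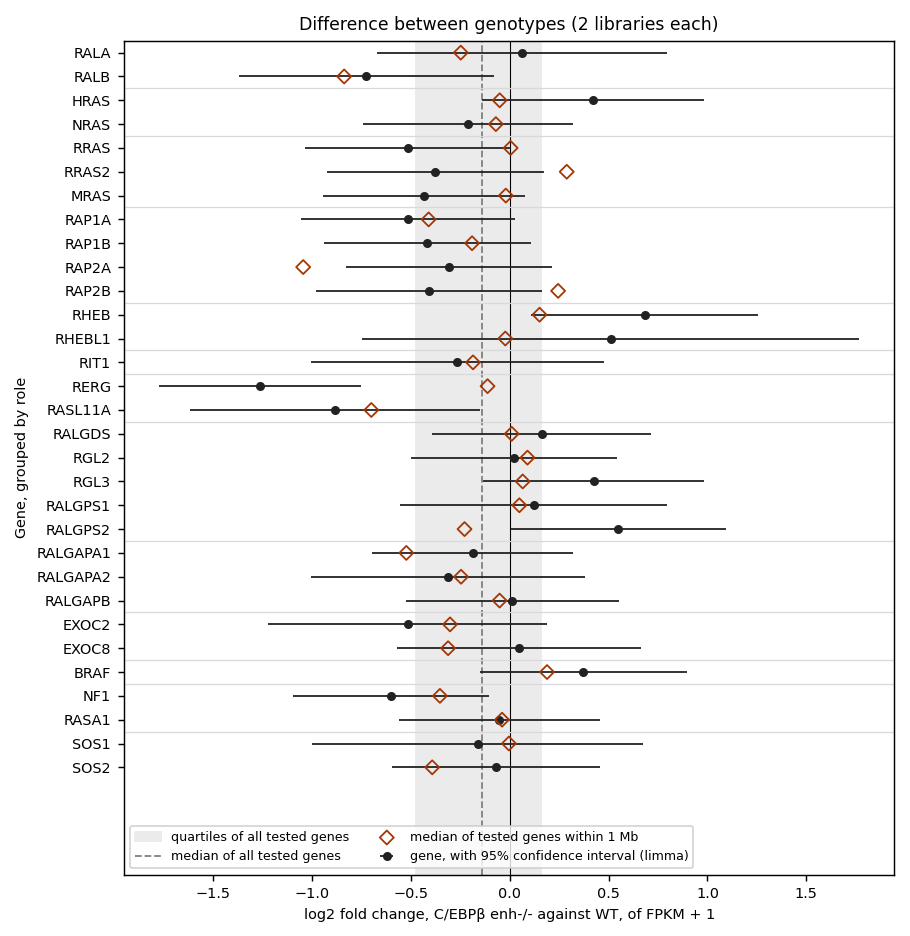
Log2 fold change of FPKM + 1, C/EBPβ enh-/- against WT, of the 31 tested members with limma's 95% confidence interval; open diamonds are the median of tested genes within 1 Mb, the dashed line the median of all tested genes (−0.14) and the shaded band their quartiles (−0.47 to 0.16). The RALB point (−0.73) lies beside its neighbours' median (−0.84), and the RERG point (−1.26) lies far below its own (−0.11).

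The neighbourhood comparison was made for every tested member. Across the 31, the log2 fold change of a member and the median of its neighbours had a Pearson correlation of 0.40 and a Spearman correlation of 0.43. This is across genes, which are not independent replicates and which share the same 4 libraries and their scaling, so no p is given. Relative to their neighbours, RERG was lowest (difference −1.15), followed by RRAS2 (−0.67, 7 neighbours), RAP2B (−0.65, only 2 neighbours, which stood in opposite directions) and RRAS (−0.52, 49 neighbours). RALGPS2 (0.78) and RAP2A (0.74, 4 neighbours) were highest relative to theirs.

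The spread between libraries of 1 genotype set the limit of these comparisons. The log2 fold change was larger than the gap between libraries in both genotypes for 15 of the 31 tested members (48.4%), against 40.3% of all tested genes. C/EBPβ enh-/- libraries differed by over 1.5-fold in 8 members and WT libraries in 2, against 27.92% and 20.05% of all tested genes, while the median gap on the log2 scale was 0.20 and 0.21 in the members and 0.29 and 0.23 over all. RHEBL1 differed most, 5.04-fold between its C/EBPβ enh-/- libraries.

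Another scaling moved the median of all tested genes from −0.14 to 0.03, by centring each library on its median. Of the 18 members whose genotypes did not overlap, 15 stayed separated in the same direction under all 3 other scalings: RALB, RRAS, RRAS2, MRAS, RAP1A, RAP1B, RAP2B, RERG, RASL11A and NF1 lower, and HRAS, RHEB, RGL3, RALGPS2 and BRAF higher. RAP2A, RALGAPA1 and EXOC2 did not. The share of all tested genes that stayed separated under all 3 is not given here, so the 15 cannot be set against a background. Other members overlapped in the main fit and separated under another scaling. RALGDS was then higher under all 3, RALGPS1 higher when centred, and RALGAPB higher when rescaled over genes above 0. NRAS and RALGAPA2 were lower when rescaled to the same total. After centring, 10 members were lower and 7 higher, against 25.2% and 28.1% of all tested genes.

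Genes around the members in the pathway gave no call. Of 79 listed genes, 78 had an entry and 59 were tested, with 0 past the limma threshold in either direction, 7 lower and 0 higher at an unadjusted p under 0.05 (16.9% and 3.86% of all tested genes), and a median log2 fold change of −0.14. By genotypes that did not overlap, 23 were lower (39.0%) and 7 higher (11.9%), near the 37.5% and 15.1% of all tested genes. In each of the 7 lists the gene with the largest change in size is given here. Among other exocyst subunits and RAL effectors, EXOC5 was at 37.0 and 37.9 FPKM in WT and at 26.0 and 28.1 in C/EBPβ enh-/- cells (−0.46, limma adjusted p = 0.268).

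Among other RAS regulators, RASA3, a GAP for RAS and RAP, was at 4.74 and 4.69 FPKM in WT and at 0.548 and 2.08 in C/EBPβ enh-/- cells (−1.39, SE 0.36, limma adjusted p = 0.106). RAP1GAP2, which turns RAP1 off, was at 15.5 and 10.2 against 5.74 and 7.78 FPKM (−0.82, adjusted p = 0.165). Of the 11 tested genes of its list, 5 were lower and 2 higher without overlap (37.5% and 15.1% of all tested genes). The adaptor gene SHC1 was at 54.8 and 86.9 against 21.3 and 39.8 FPKM (−1.22, SE 0.36, adjusted p = 0.132).

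Of the 11 genes of the MEK-ERK list, 6 were lower and 1 was higher without overlap, where 37.5% and 15.1% of all tested genes were, and the median was −0.36 against −0.14 over all. None passed the threshold. MAP2K2, which encodes MEK2, was at 83.1 and 108.9 FPKM in WT and at 46.5 and 64.6 in C/EBPβ enh-/- cells (−0.78, limma adjusted p = 0.161). The higher gene was PEBP1, an inhibitor of RAF signalling, at 204.2 and 209.2 against 264.4 and 276.4 FPKM (0.39, adjusted p = 0.318). MAP2K2, PEBP1 and TSC2 were chosen after their values were seen.

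Around RHEB, 3 of the 6 genes of the TSC and mTORC1 list were lower without overlap and 0 higher, with a median of −0.11, near the 37.5% and 15.1% of all tested genes and their median of −0.14. MTOR was at 17.2 and 17.9 FPKM in WT and at 9.84 and 14.6 in C/EBPβ enh-/- cells (−0.51, limma adjusted p = 0.298), while RHEB was higher. TSC2, the GAP for RHEB, overlapped at 7.59 and 10.2 against 5.41 and 11.6 FPKM. GEM, largest in size of the other RAS-subfamily GTPases, was at 2.20 and 6.38 FPKM in WT and at 17.2 and 3.90 in C/EBPβ enh-/- cells (0.96, SE 0.64, limma adjusted p = 0.437). Its genotypes overlapped, and only C/EBPβ enh-/- library 1 exceeded both WT libraries. GOLGA7, a partner in the palmitoylation of RAS and largest of the processing list, was at 23.7 and 18.3 against 33.6 and 25.7 FPKM, higher without overlap (0.48, SE 0.25, adjusted p = 0.324).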

How the data were processed

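The files deposited for the 4 RNA-seq libraries give 1 FPKM value per gene, and read counts were not used here. The submitters' processing notes name TopHat2 2.0.13, Cufflinks, edgeR and hg19, with no role or order, and the labels' extraction text describes chromatin. Whether libraries were scaled to each other is not given in the sources used here. Genotype came from the labels. Of 57815 entries, 57768 genes remained without chromosome Y copies of pseudoautosomal genes, and 55535 matched a symbol. Gene coordinates came from GENCODE 44 on GRCh37, and promoters from RefSeq on GRCh38.p14.

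Values were transformed as log2(FPKM + 1), which understates changes of low genes, genes averaging 1 FPKM or more were kept, and limma 3.58.1 (R 4.3.3) tested genotype (lmFit, trended eBayes, two-sided, Benjamini-Hochberg, threshold 0.05). Shares and ratios were compared by an exact permutation test. Low values gave only approximate depth (36.6% to 42.1% within 0.1 of a whole fragment), so no count test was run. Members, lists and tests were chosen with earlier results of these data known. Full values were given for tested members whose genotypes did not overlap or whose log2 fold change was 0.5 or more in size, and for the gene with the largest log2 fold change in size of each pathway list. In all 10 alternatives and 4 fits without 1 library were run. Figures were made with matplotlib 3.10.9 in Python 3.11.15.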

Additional observations from a re-analysis of the deposited data

How the results depend on the processing

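No member other than RERG passed the limma threshold under any alternative run. RERG kept its call (adjusted p from 0.0240 to 0.0479) with a pseudocount of 0.1, a mean FPKM of at least 5, genes above 0 in all libraries, or protein-coding genes. The count of members past the threshold was 0 without the mean-variance trend, without the filter, under both rescalings, centred on the median, with the replicate block and without any 1 library, which leaves a lone library assumed to vary like the other genotype. The cause was not tested. With the replicate number as a block RERG had an adjusted p of 0.0786 and 93 genes were lower and 31 higher, against 151 and 31 without it; same-numbered libraries did not deviate together (r = 0.0094 across 12491 genes, for the single pair of numbers), so they share only a number. Counts over all genes, lower and higher, were 0 and 0 without the filter, 324 and 47 with genes above 0, 457 and 60 with protein-coding genes, 61 and 23 rescaled to the same total, 45 and 27 rescaled over genes above 0, and 68 and 31 centred.

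Rescaled over genes above 0 and centred, the log2 fold changes turned positive for RASA1 (0.127 and 0.122), SOS1 (0.021 and 0.013) and SOS2 (0.109 and 0.107), and, only when rescaled, for RALGAPA1 (0.0021). The members' median was then 0.0021 and −0.014. Without 1 library it ran from −0.294 to −0.097, members lower without overlap from 14 to 19 and higher from 6 to 10, where fewer libraries make separation easier for every gene (49.3% to 54.5% lower at the ends of the first range, and 24.1% and 33.2% higher at those of the second, of all tested genes). Log2 fold changes that turned without 1 library ran from −0.316 to 0.440 for RALA, −0.318 to 1.34 for RHEBL1, −0.680 to 0.151 for RIT1, −0.097 to 0.139 for RGL2, −0.027 to 0.268 for RALGPS1, −0.642 to 0.016 for RALGAPA2, −0.128 to 0.153 for RALGAPB, −0.134 to 0.231 for EXOC8, −0.130 to 0.026 for RASA1, −0.581 to 0.259 for SOS1 and −0.175 to 0.040 for SOS2. RALB ran from −1.01 to −0.44 without 1 library and from −0.87 to −0.55 under the other alternatives (adjusted p from 0.150 to 0.865).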
